A study of Callithrix jacchus with 3 samples.

Results

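The genes described here are the Wnt ligands, their receptors, the proteins that modify or carry the signal, and the genes that the signal switches on, in EPSC-like cells of the common marmoset (Callithrix jacchus), a small New World monkey. EPSC stands for extended pluripotent stem cell. A list of 60 gene symbols was looked up in a table that pairs Ensembl marmoset gene IDs with symbols, and 38 of them had an ID among the 30811 genes counted. The other 22 had no matched ID and were not analysed here: the ligands WNT4, WNT7A, WNT7B, WNT8B, WNT9A and WNT16, the receptors FZD1, FZD7, FZD8, FZD9, FZD10 and ROR2, the inhibitors SFRP1, SFRP4, FRZB, DKK1 and DKK2, and RNF43, ZNRF3, DVL1, AXIN2 and TCF7L1. Of the 38 matched genes, 36 had at least 1 count, and 31 passed edgeR's filter on low counts.

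RNA was sequenced in 3 libraries of 1 group, and the study's title says that marmoset embryonic stem cells were the starting material for attempts to reach the extended pluripotent state. The titles of the libraries are alike except for a replicate number, so the libraries may come from 1 line, and no label says whether they came from separate cultures. Any SD, and any p-value of a test of a gene's level, therefore reflects how far these libraries vary, and that variation may be technical. There was no parental or control group, and no culture medium is named in the sources used here.

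Wnt proteins are secreted lipid-modified ligands. PORCN attaches the lipid and WLS carries the ligand to the cell surface, where it binds a Frizzled (FZD) receptor together with the co-receptor LRP5 or LRP6. Binding recruits Dishevelled (DVL) and disables the complex of AXIN, APC and the kinase GSK3 that otherwise marks beta-catenin, the product of CTNNB1, for destruction. Stabilised beta-catenin then acts with TCF and LEF proteins at target genes, many of which encode feedback regulators of the pathway. In primate pluripotent cells Wnt signalling is known for its links to self-renewal and to primitive streak fate, and published media for extended pluripotent cells of other species contain a GSK3 inhibitor.

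The libraries held 40593244 counts in replicate 3, 52327369 in replicate 1 and 55224475 in replicate 2. Levels are given as CPM, counts per 1000000 counts after TMM scaling, which sets libraries on a common scale by the bulk of their genes. On that scale 3 counts, the limit that a count of 0 allows, were worth 0.0736, 0.0573 and 0.0546 CPM in replicates 3, 1 and 2. Such limits, the intervals below and the p-values of tests between pairs of libraries cover counting error only, not the variation between libraries. Replicate 3 stood apart from the other libraries across the whole table. At an adjusted p under 0.05 by the exact conditional binomial test and a difference of at least 1.5-fold, replicate 3 had 2370 lower and 1450 higher genes than replicate 1, of 22703 tested. Replicate 2 had 149 lower and 104 higher genes than replicate 1, of 22502 tested. Of 10 listed pluripotency markers, 8 were matched. All 8, among them POU5F1, NANOG and SOX2, were above 1 CPM, as were 78.3% of tested genes with a symbol. Their summed level was 6418 CPM in replicate 3, 6504 CPM in replicate 1 and 6698 CPM in replicate 2. That sum hides differences between markers. LIN28A, at 350.3 CPM in replicate 3, 674 CPM in replicate 1 and 725 CPM in replicate 2, was lower in replicate 3 than in both others at 1.5-fold, as were LIN28B and SALL4, while POU5F1 stood at 1185 CPM in replicate 3, 974 CPM in replicate 1 and 972 CPM in replicate 2, and EPCAM at 1032 CPM in replicate 3, 804 CPM in replicate 1 and 799.5 CPM in replicate 2.

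Genes of every role of the Wnt pathway were expressed, and of the 9 members with no call above 1 CPM, 7 were ligands. Of the 36 members with counts, 29 were called above 1 CPM and 4 below, and the remaining 3 were not distinguished from that level (quasi-likelihood F statistic of edgeR, two-sided, Benjamini-Hochberg adjusted over all 23432 genes with counts). Over all these genes, 56% were above 1 CPM and 37.8% below it. Over the 12174 that have a symbol, as all members do, 78.3% were above and 16.1% below, and 29 of 36 members is close to that share. The median member stood at 3.48 ± 0.20 on the log2 CPM scale, against 3.94 ± 0.10 for all genes with a symbol (SD, n = 3). In bulk RNA fewer cells of a type and less RNA per cell cannot be told apart. CPM is not corrected for gene length, so values of different genes are set side by side below without ranking them.

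**Figure D1:**
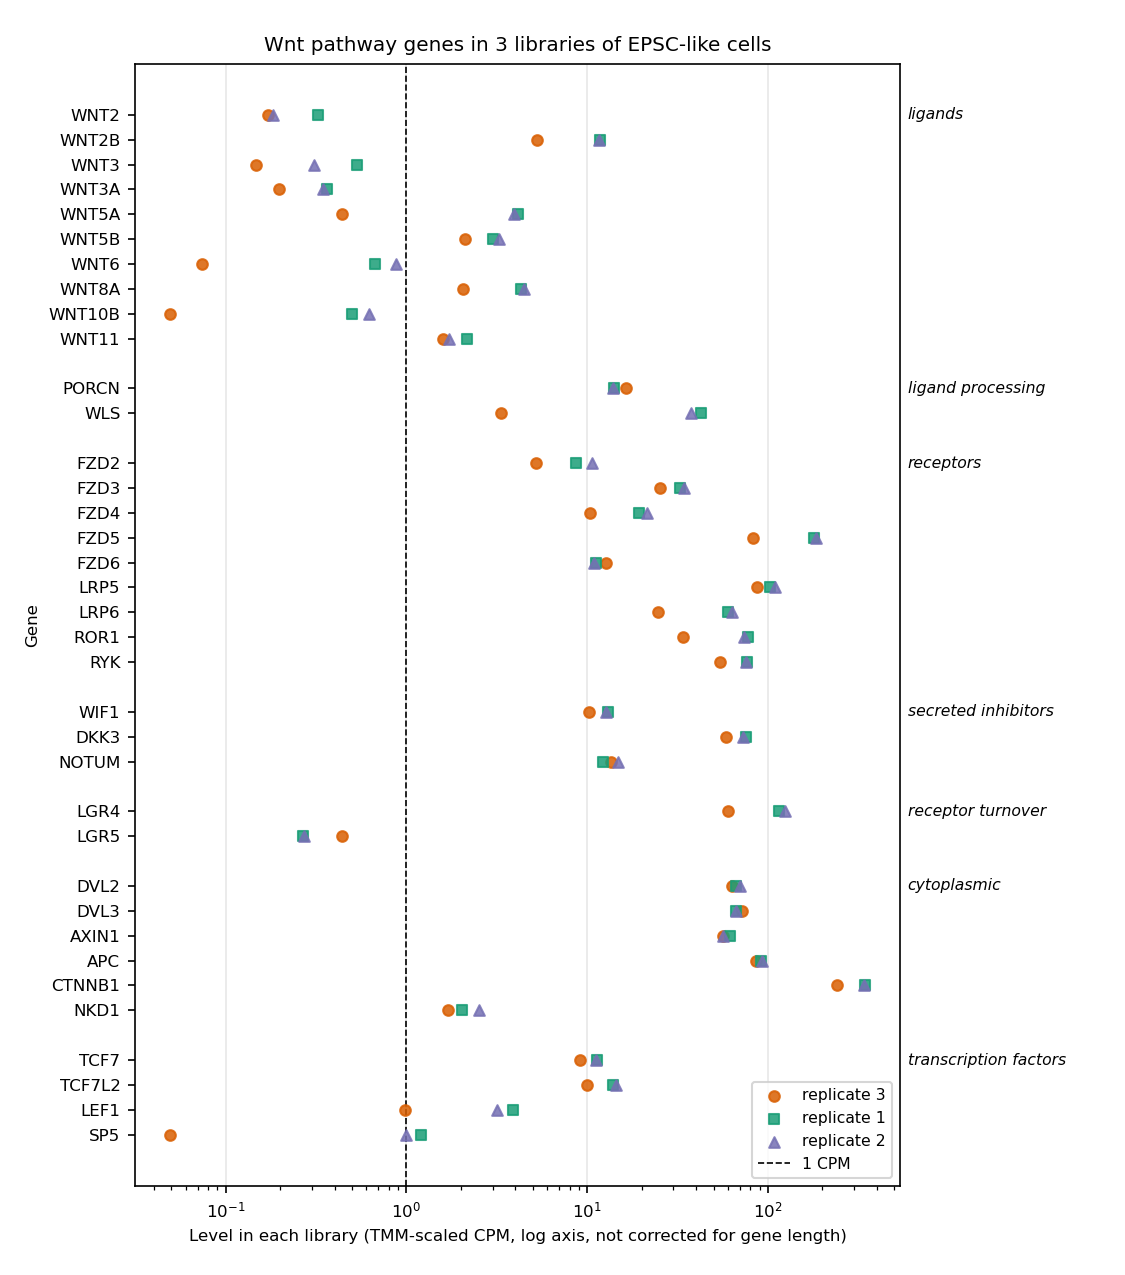
Level of each member with counts in each library, in TMM-scaled CPM on a log axis, grouped by role, with 1 point per library and a dashed line at 1 CPM. WNT1 and WNT10A had 0 counts and are not drawn. The points of replicate 3 lie well to the left for WLS, WNT5A, WNT6, WNT10B and SP5, while the 3 points of APC, AXIN1, DVL2 and DVL3 nearly coincide.

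The ligands were the role with the lowest share of members above the level. Of 12 matched, 5 passed the test above 1 CPM and 3 below it, 2 passed neither way and 2 had no counts. Of all tested genes with a symbol, 78.3% were above and 16.1% below. WNT2B stood at 5.27 CPM in replicate 3, 11.8 CPM in replicate 1 and 11.6 CPM in replicate 2. WNT8A, a ligand of gastrulation in vertebrate embryos, stood at 2.06 CPM in replicate 3, 4.28 CPM in replicate 1 and 4.47 CPM in replicate 2. In both genes replicate 3 was the low library and the other two lay close together. WNT5A, best known as a ligand of beta-catenin-independent signalling, stood at 0.441 CPM in replicate 3, against 4.15 and 3.93 CPM in replicates 1 and 2. It was thus called above 1 CPM (adjusted p = 0.0104, edgeR quasi-likelihood) although 1 of the 3 libraries lay below that level. The related ligand WNT5B averaged 2.79 ± 0.60 CPM and WNT11 1.82 ± 0.30 CPM (SD, n = 3), and both were above 1 CPM in each library.

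WNT3 and WNT3A, which activate the beta-catenin branch and are tied to primitive streak formation in the mouse, were both below 1 CPM. WNT3 had 6 counts in replicate 3, 28 in replicate 1 and 17 in replicate 2, and averaged 0.331 ± 0.195 CPM (SD, n = 3). WNT3A had 8 counts in replicate 3 and 19 in each of the others, and averaged 0.302 ± 0.092 CPM. WNT2 was below the level as well, at 0.226 ± 0.086 CPM. The adjusted p-values of these 3 calls were 0.0111, 0.00399 and 0.00313 (edgeR quasi-likelihood).

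WNT6 and WNT10B were low and differed strongly between libraries. WNT6 had 3 counts in replicate 3, 35 in replicate 1 and 48 in replicate 2. WNT10B had 2 counts in replicate 3, 26 in replicate 1 and 34 in replicate 2. Neither was distinguished from 1 CPM (adjusted p = 0.162 and 0.0582, edgeR quasi-likelihood). Both calls moved with the libraries and the test used. WNT6 was below 1 CPM without replicate 1 or replicate 2 (adjusted p = 0.0474 and 0.0184), and WNT10B without replicate 1, 2 or 3 (adjusted p = 0.0143, 0.00920 and 0.00216), in fits that take a gene's spread from the trend alone. With replicates 1 and 2 summed, both were below it (adjusted p = 0.0203 for WNT6 and 0.00473 for WNT10B, edgeR quasi-likelihood). That fit, too, takes a gene's spread from the trend alone. With the DESeq2 test on all 3 libraries WNT10B was below 1 CPM (adjusted p = 0.0350).

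WNT1 and WNT10A had 0 counts in all 3 libraries. Each has another Wnt ligand gene as its next protein-coding neighbour in the RefSeq annotation of assembly calJac240_pri, WNT1 beside WNT10B and WNT10A beside WNT6. In both pairs, 1 gene had no counts and the other was low.

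The pair of genes that prepare every ligand for release behaved differently from each other. PORCN, the acyltransferase, stood at 16.4 CPM in replicate 3, 14.1 CPM in replicate 1 and 14.0 CPM in replicate 2. WLS, the ligand carrier, stood at 3.34 CPM in replicate 3, against 42.4 and 37.5 CPM in replicates 1 and 2. Both were above 1 CPM in each library, but WLS was low in replicate 3 alone. It was 12.7-fold lower there than in replicate 1 (95% exact counting interval 10.7 to 15.2) and 11.2-fold lower than in replicate 2 (9.44 to 13.5).

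All 9 matched receptor genes were above 1 CPM, and all were above it in each library. Of all tested genes with a symbol, 78.3% were called above 1 CPM. FZD5, a Frizzled receptor, stood at 82.4 CPM in replicate 3, 179 CPM in replicate 1 and 186 CPM in replicate 2. The co-receptor LRP6 stood at 24.5 CPM in replicate 3, 60.4 CPM in replicate 1 and 63.05 CPM in replicate 2. ROR1, a receptor tyrosine kinase that binds WNT5A, stood at 33.8 CPM in replicate 3, 77.9 CPM in replicate 1 and 73.6 CPM in replicate 2. In these 3 genes replicate 3 was the low library, and the other two lay close together. FZD2 stood at 5.22 CPM in replicate 3, 8.62 CPM in replicate 1 and 10.7 CPM in replicate 2. FZD4, which also serves as a receptor for norrin, stood at 10.4 CPM in replicate 3, 19.4 CPM in replicate 1 and 21.4 CPM in replicate 2. Replicate 3 was again the lowest library for both.

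The remaining receptors were more even. LRP5, the other co-receptor, stood at 86.7 CPM in replicate 3, 103 CPM in replicate 1 and 109 CPM in replicate 2. RYK, a Wnt-binding receptor of the tyrosine kinase fold, stood at 54.5 CPM in replicate 3, 77.0 CPM in replicate 1 and 75.2 CPM in replicate 2. Replicate 3 was the lowest library for both, by under 1.5-fold. FZD3, known for its part in planar cell polarity and axon guidance, averaged 30.8 ± 4.79 CPM (SD, n = 3), and FZD6, which acts in planar cell polarity too, 11.7 ± 0.98 CPM. FZD6 was the only Frizzled gene of the 5 matched whose CPM was higher in replicate 3 than in both other libraries, at a ratio of 1.13 to replicate 1 and 1.17 to replicate 2, under the 1.5-fold required for a call.

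The 3 matched secreted inhibitors were above 1 CPM, as were 78.3% of tested genes with a symbol, and varied little. WIF1, which binds Wnt ligands outside the cell, stood at 10.3 CPM in replicate 3, 13.1 CPM in replicate 1 and 12.8 CPM in replicate 2. DKK3, a divergent member of the Dickkopf family, stood at 58.9 CPM in replicate 3, 76.02 CPM in replicate 1 and 72.7 CPM in replicate 2. NOTUM, an enzyme that removes the lipid from Wnt ligands and is itself a target of the pathway, stood at 13.5 CPM in replicate 3, 12.3 CPM in replicate 1 and 14.9 CPM in replicate 2. For NOTUM replicate 3 lay between the others, and for WIF1 and DKK3 it was the lowest by under 1.5-fold.

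The R-spondin receptors were split. LGR4, which with R-spondin protects Frizzled receptors from removal, stood at 60.2 CPM in replicate 3, 115 CPM in replicate 1 and 124 CPM in replicate 2. LGR5, a related receptor and a target of the pathway in adult stem cells of mouse and human, had 18 counts in replicate 3, 14 in replicate 1 and 15 in replicate 2. LGR4 was thus above 1 CPM in each library, and LGR5 was below it at 0.327 ± 0.099 CPM (SD, n = 3, adjusted p = 0.00418, edgeR quasi-likelihood).

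All 6 matched cytoplasmic members were above 1 CPM, as were 78.3% of tested genes with a symbol. None was called different between libraries at 1.5-fold. Of all genes, 10.4% were called lower and 6.39% higher in replicate 3 than in replicate 1. With 6 members, these counts do not set the role apart from other genes. CTNNB1, which encodes beta-catenin, stood at 242 CPM in replicate 3, 345 CPM in replicate 1 and 340 CPM in replicate 2. It was 1.43-fold lower in replicate 3 than in replicate 1 (95% exact counting interval 1.39 to 1.46), a difference beyond counting error but under the 1.5-fold required for a call. APC, a scaffold of the destruction complex, stood at 86.05 CPM in replicate 3, 92.0 CPM in replicate 1 and 92.7 CPM in replicate 2, and AXIN1, another scaffold, averaged 58.1 ± 2.95 CPM (SD, n = 3). The Dishevelled gene DVL3 stood at 71.7 CPM in replicate 3, 66.8 CPM in replicate 1 and 66.6 CPM in replicate 2, and DVL2 averaged 66.8 ± 3.18 CPM. In these 4 genes the highest library exceeded the lowest by at most 1.10-fold. NKD1, a feedback inhibitor that binds Dishevelled, stood at 1.69 CPM in replicate 3, 2.03 CPM in replicate 1 and 2.51 CPM in replicate 2.

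Among the transcription factors, TCF7 and TCF7L2 were more even than LEF1 and SP5. TCF7 stood at 9.17 CPM in replicate 3, 11.3 CPM in replicate 1 and 11.1 CPM in replicate 2. TCF7L2 stood at 9.93 CPM in replicate 3, 13.8 CPM in replicate 1 and 14.4 CPM in replicate 2. Replicate 3 was the lowest library for both, by under 1.5-fold. LEF1, a DNA-binding partner of beta-catenin and a target of the pathway, stood at 0.981 CPM in replicate 3, 3.90 CPM in replicate 1 and 3.16 CPM in replicate 2. SP5, a zinc finger gene that beta-catenin activates directly in mouse and human stem cells, had 2 counts in replicate 3, against 63 and 55 counts in replicates 1 and 2. LEF1 was called above 1 CPM over the 3 libraries (adjusted p = 0.00312, edgeR quasi-likelihood), and SP5, at 0.751 ± 0.617 CPM (SD, n = 3), was not distinguished from it (adjusted p = 0.539).

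The 6 matched target genes, a class that cuts across the roles, were not all called alike. AXIN2, RNF43 and ZNRF3, also listed as targets, had no matched ID. TCF7, NOTUM, NKD1 and LEF1 were above 1 CPM, LGR5 was below and SP5 was not distinguished. LEF1 and SP5 were lower in replicate 3 than in both others, where 8.91% of all genes were. TCF7, NOTUM, NKD1 and LGR5 were not called in either direction. The ratio of replicate 3 to replicate 1 was 0.252 for LEF1 (95% exact counting interval 0.175 to 0.354) and 0.0407 for SP5 (0.00483 to 0.153). It was 0.813 for TCF7 (0.713 to 0.927), 1.10 for NOTUM (0.980 to 1.23), 0.835 for NKD1 (0.608 to 1.14) and 1.65 for LGR5 (0.775 to 3.58). The interval of LGR5 is wide because it rests on few counts.

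The differences between libraries that were called ran in 1 direction. At 1.5-fold, replicate 3 was lower than replicate 1 for 15 of the 36 tested members and higher for 0. Over all genes tested in that pair, 10.4% were lower and 6.39% higher. Against replicate 2, 15 were lower in replicate 3 and 0 higher, where 10.6% of all genes were lower and 6.86% higher. Among the 29 members whose mean reached 1 CPM, 11 were lower than in replicate 1 and 12 lower than in replicate 2, or 37.9% and 41.4%, and 0 were higher. Of all genes at that level, 14.3% were lower than in replicate 1 and 5.5% higher, and 14.6% were lower than in replicate 2 and 5.89% higher. The median log2 ratio of those members was -0.48 and -0.49 to replicates 1 and 2, while that of all genes at that level was -0.05 to each. With no minimum fold, for which no share of all genes is given, 2 members were higher in replicate 3 than in replicate 1 and 3 higher than in replicate 2. The test compares pairs of libraries and no conditions, and both comparisons share replicate 3, so their calls are not independent.

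The members lower in replicate 3 than in both others were 14: WNT2B, WNT5A, WNT6, WNT8A and WNT10B among the ligands, WLS, the receptors FZD2, FZD4, FZD5, LRP6 and ROR1, and LGR4, LEF1 and SP5. WNT3 was called against replicate 1 only and WNT5B against replicate 2 only. Over all genes tested in both pairs, those of low count included, 8.91% were lower than in both. By role, 5 of 10 tested ligands, 5 of 9 receptors, 0 of 6 cytoplasmic members and 0 of 3 secreted inhibitors were. The difference between roles was not tested. These counts cover members only, and the other pathway genes given below, some of them also lower in replicate 3, were not sorted into these roles. For the ligands the largest differences were those of WNT5A, 9.40-fold lower than in replicate 1 (95% exact counting interval 5.81 to 16.2), WNT6 and WNT10B. The ratio of replicate 3 to replicate 1 was 0.110 for WNT6 (0.0216 to 0.349) and 0.0987 for WNT10B (0.0114 to 0.394), on 3 and 2 counts. For the receptors the ratio of replicate 3 to replicate 1 ran from 0.406 for LRP6 to 0.606 for FZD2 among those called.

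**Figure D2:**
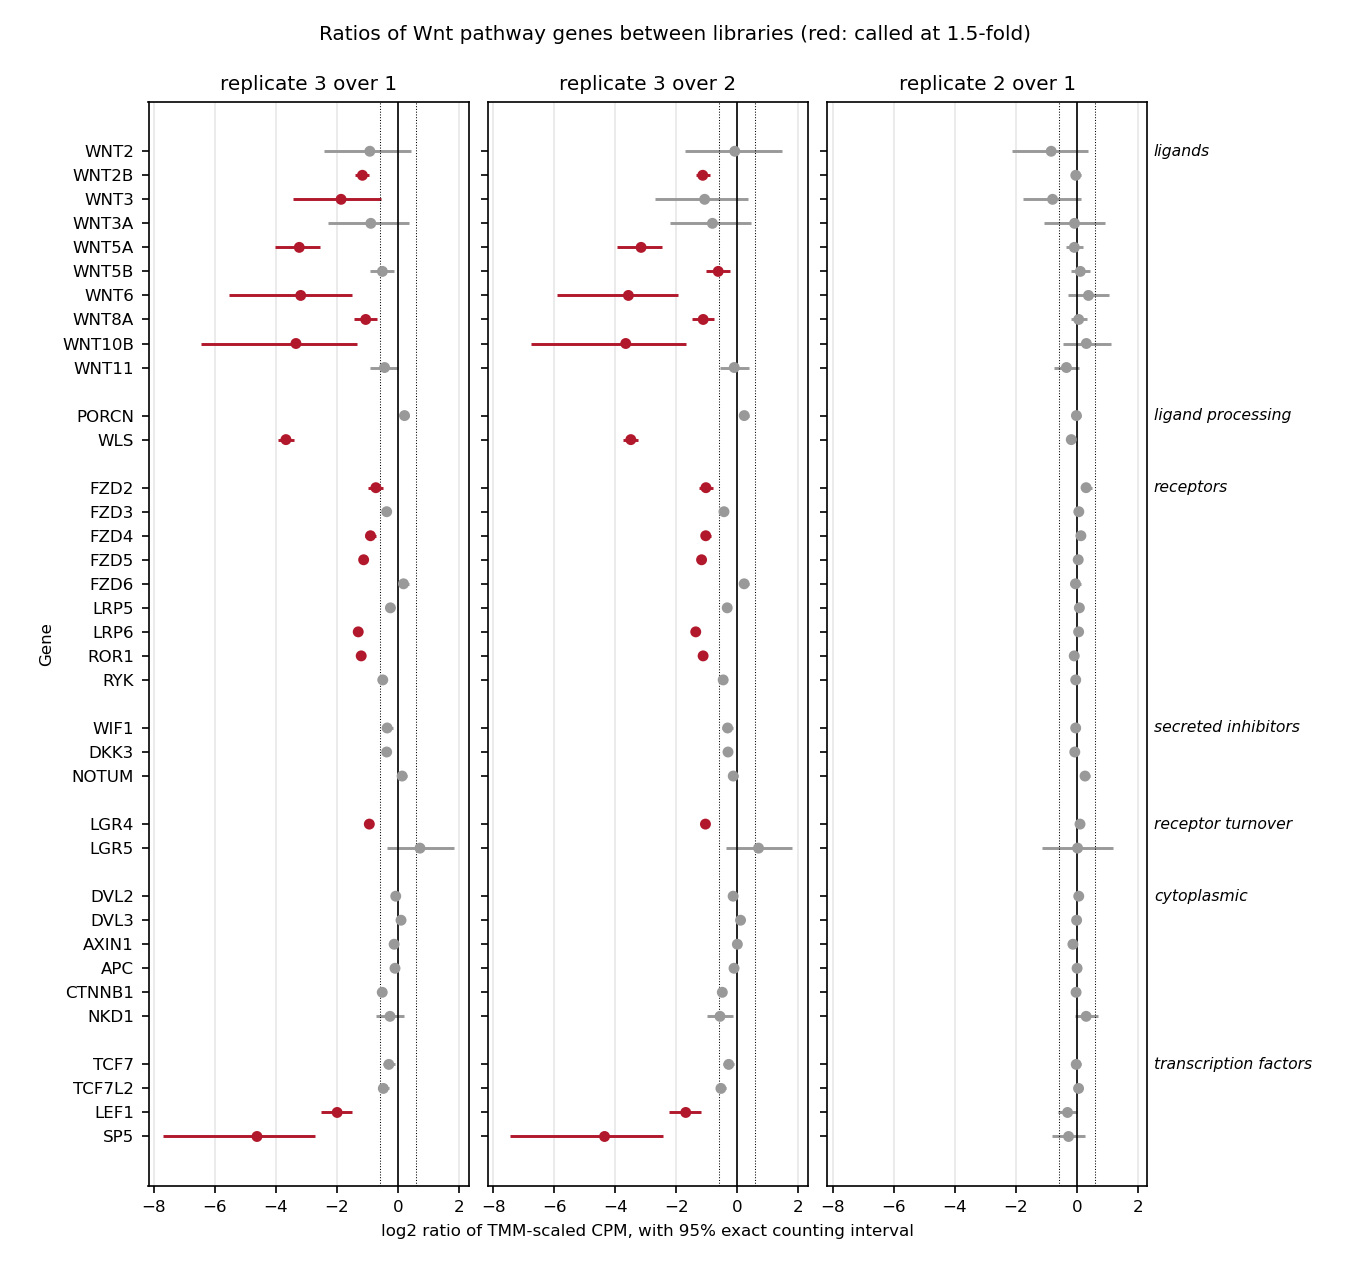
Log2 ratio of TMM-scaled CPM for each member between pairs of libraries, with 95% exact counting intervals, and dotted lines at 1.5-fold. Red points passed the exact conditional binomial test at 1.5-fold. In the panels of replicate 3 over 1 and over 2 all red points lie left of 0, and the panel of replicate 2 over 1 has none.

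Replicates 1 and 2 were close to each other for the same genes. At 1.5-fold, 0 of 36 members were lower and 0 higher in replicate 2 than in replicate 1, where 0.662% of all genes were lower and 0.462% higher. With no minimum fold, for which no share of all genes is given, 2 members were lower and 4 higher. Among these members at 1 CPM or more, the ratio of replicate 2 to replicate 1 ran from 0.791 for WNT11 to 1.24 for NKD1. Of the 29 members whose mean reached 1 CPM, 0 were called in this pair, where 0.437% of all genes at that level were lower and 0.277% higher. No label shows whether replicates 1 and 2 are repeats of 1 sample, in which case the independent samples would number fewer than 3.

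**Figure D3:**
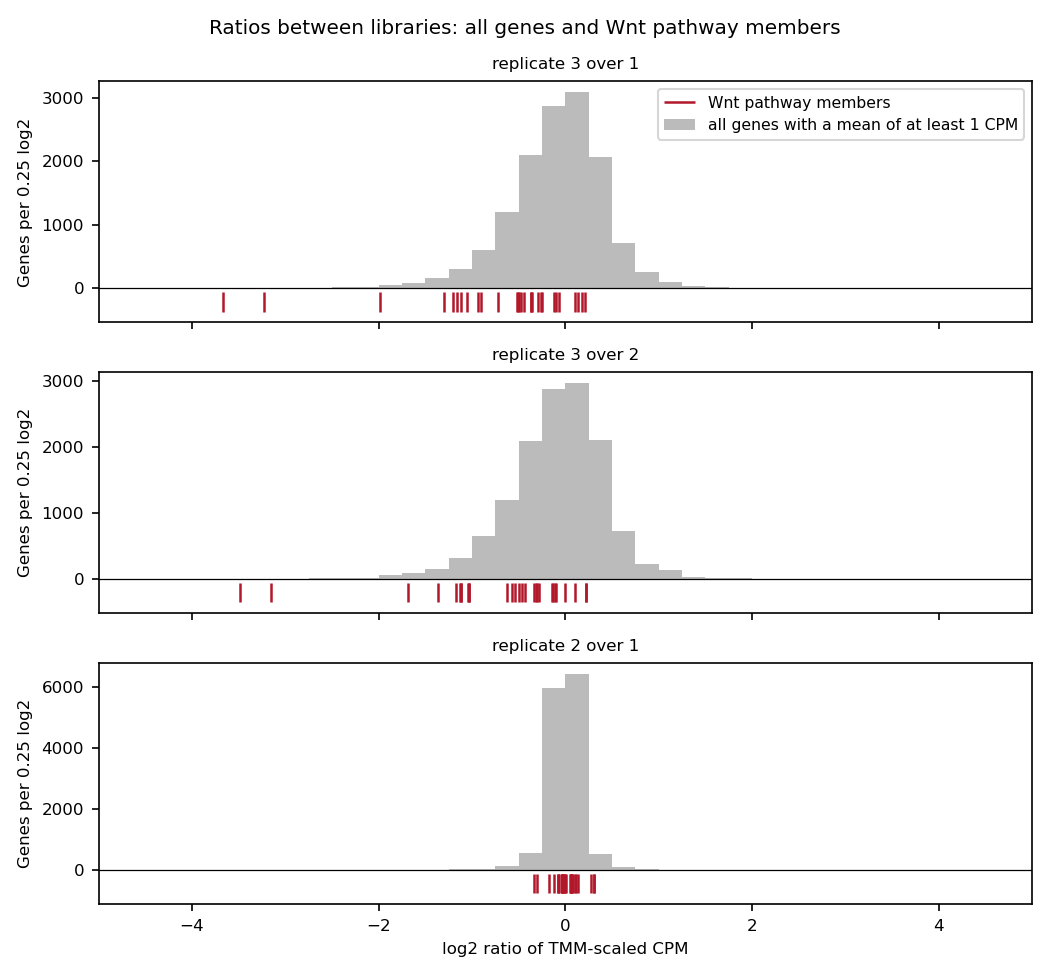
Distribution of the log2 ratio between pairs of libraries over the 13719 genes whose mean reached 1 CPM (grey bars, genes per bin of 0.25), with a red line under the axis for each of the 29 members at that level. Red lines reach below -3 for WLS and WNT5A in both upper panels, while in the panel of replicate 2 over 1 all lie within 0.5 of 0.

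Ratios between members of the same library do not depend on how libraries are scaled, and they restate some of the differences above without scaling. The pairs were chosen after the values were seen, so they are a description and no further support. WLS made up 16.9% of the counts of WLS and PORCN in replicate 3 (95% exact binomial interval 14.4 to 19.7), 75.1% in replicate 1 (73.5 to 76.6) and 72.8% in replicate 2 (71.1 to 74.5). LRP6 made up 22.05% of the counts of both co-receptors in replicate 3, 37.002% in replicate 1 and 36.6% in replicate 2. Both shares were lowest in replicate 3. ROR1 made up 38.3% of the counts of ROR1 and RYK in replicate 3, 50.3% in replicate 1 and 49.5% in replicate 2.

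LEF1 made up 4.88% of the counts of LEF1, TCF7 and TCF7L2 in replicate 3 (95% exact binomial interval 3.51 to 6.59), 13.4% in replicate 1 (11.8 to 15.3) and 11.01% in replicate 2 (9.51 to 12.7). FZD5 made up 60.5% of the counts of the 5 Frizzled genes in replicate 3, 71.4% in replicate 1 and 70.6% in replicate 2. Among the 12 ligand genes, WNT5A made up 3.64% of the counts in replicate 3 (2.17 to 5.70), 14.9% in replicate 1 and 14.4% in replicate 2. WNT2B had a like share in each library, with 43.5% in replicate 3 (39.1 to 48.02), 42.5% in replicate 1 and 42.4% in replicate 2. Its intervals overlapped in all 3 libraries. The ligand counts were 494 in replicate 3, 1454 in replicate 1 and 1499 in replicate 2.

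**Figure D4:**
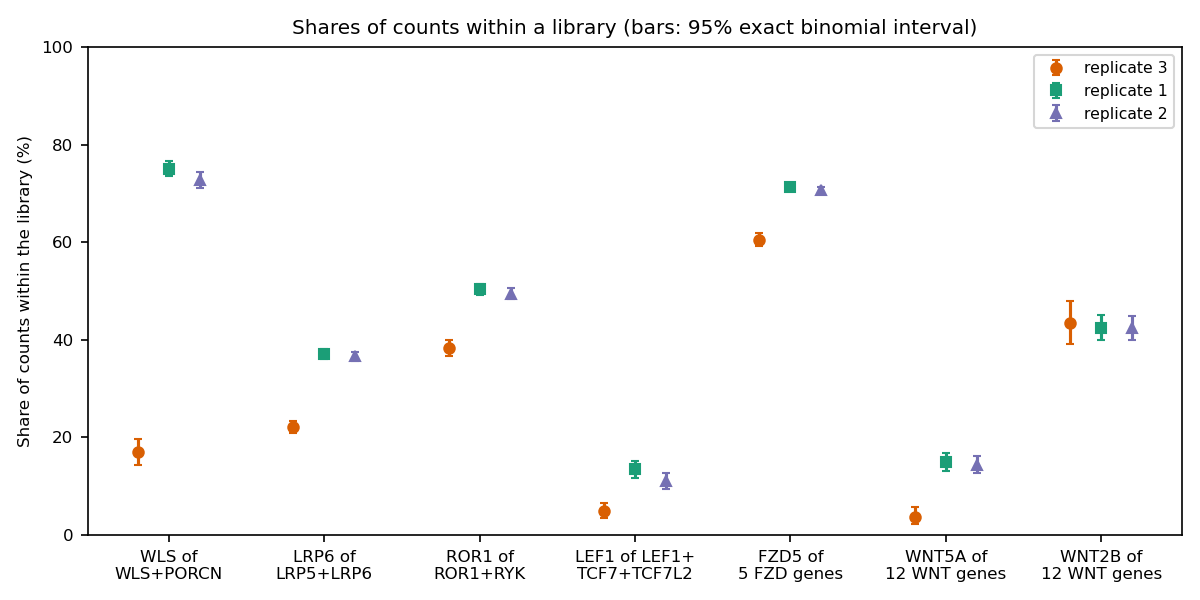
Share of counts that 1 gene takes of a named set within each library, in percent, with 95% exact binomial intervals. Replicate 3 lies below the other libraries for WLS, LRP6, ROR1, LEF1, FZD5 and WNT5A, and beside them for WNT2B.

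Markers of several lineages differed between the libraries as well. The 4 matched trophoblast markers summed to 13.0 CPM in replicate 3, 29.7 CPM in replicate 1 and 30.6 CPM in replicate 2. CDX2 had 0 counts in replicate 3, 25 in replicate 1 and 29 in replicate 2. TFAP2A stood at 2.45 CPM in replicate 3, 12.3 CPM in replicate 1 and 12.1 CPM in replicate 2. GATA2 stood at 0.687 CPM in replicate 3, 9.12 CPM in replicate 1 and 9.77 CPM in replicate 2. The 5 matched endoderm markers summed to 7.23 CPM in replicate 3, 15.6 CPM in replicate 1 and 18.1 CPM in replicate 2, and the endoderm regulator GATA6 stood at 0.490 CPM in replicate 3, against 7.32 and 8.06 CPM in replicates 1 and 2. The 5 matched mesenchyme and fibroblast markers summed to 451 CPM in replicate 3, 638 CPM in replicate 1 and 595 CPM in replicate 2. Each of these sums also covers members that were not called lower in replicate 3. GATA4, another endoderm regulator, stood at 3.87 CPM in replicate 3, 4.13 CPM in replicate 1 and 4.62 CPM in replicate 2, and the trophoblast keratin KRT7 at 9.86 CPM in replicate 3, 7.80 CPM in replicate 1 and 8.24 CPM in replicate 2. The collagen gene COL1A1 made 404 CPM of the mesenchyme and fibroblast sum in replicate 3, 546 CPM in replicate 1 and 516 CPM in replicate 2.

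The 4 matched blood and endothelium markers summed to 67.4 CPM in replicate 3, 118 CPM in replicate 1 and 124 CPM in replicate 2, of which PECAM1 made 65.7, 116 and 121 CPM. PTPRC had 0 counts in replicate 3, 2 in replicate 1 and 4 in replicate 2, a difference not detectable at this depth. The 5 matched primitive streak and mesoderm markers summed to 12.3 CPM in replicate 3, 14.3 CPM in replicate 1 and 11.8 CPM in replicate 2. Its members went different ways. EOMES stood at 0.466 CPM in replicate 3, 2.29 CPM in replicate 1 and 2.66 CPM in replicate 2. TBXT stood at 7.68 CPM in replicate 3, 6.19 CPM in replicate 1 and 4.60 CPM in replicate 2. The 3 neuroectoderm markers given here summed to 2.38 CPM in replicate 3, 2.20 CPM in replicate 1 and 2.15 CPM in replicate 2. Called lower in replicate 3 than in both others were 3 of 4 trophoblast, 2 of 5 endoderm, 3 of 5 mesenchyme and fibroblast, 1 of 4 blood and endothelium, 1 of 5 primitive streak and mesoderm, 0 of 3 neuroectoderm and 3 of 8 pluripotency markers, against the 8.91% of all genes. That 8.91% covers genes of low count too. The part of these markers, and of the lower depth of replicate 3, in the differences of the Wnt genes was not tested.

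Other genes of the pathway, listed by their known function, were tested in the same way. The list was made with earlier results of these data known, so it is no independent check. Of 54 listed, 42 were matched, of which 36 passed the test above 1 CPM and 4 below it. Over all genes with counts and a symbol, 78.3% were above and 16.1% below. SFRP2, CSNK1A1 and TNKS2 are named because their mean CPM was highest, which is not corrected for length. SFRP2, a secreted Frizzled-related protein that binds Wnt ligands, stood at 961 CPM in replicate 3, 703 CPM in replicate 1 and 726 CPM in replicate 2. CSNK1A1, the casein kinase that primes beta-catenin for destruction, stood at 250.1 CPM in replicate 3, 299 CPM in replicate 1 and 308 CPM in replicate 2. TNKS2, a tankyrase that promotes the turnover of AXIN, stood at 109 CPM in replicate 3, 178 CPM in replicate 1 and 182 CPM in replicate 2. SFRP2 was thus highest in replicate 3, and TNKS2 was lowest there. The 4 below 1 CPM, named after their values were seen, were the inhibitor DKK4, the R-spondin genes RSPO1 and RSPO2 and the R-spondin receptor LGR6. The R-spondin gene RSPO4 was above it, at 4.61 CPM in replicate 3, 4.30 CPM in replicate 1 and 4.11 CPM in replicate 2. At 1.5-fold, replicate 3 was lower than replicate 1 for 15 of the 42 and higher for 0, where 10.4% of all genes were lower and 6.39% higher. It was lower than replicate 2 for 14 and higher for 1, TBXT, where 10.6% of all genes were lower and 6.86% higher. For 12 of the 42 it was lower than both, where 8.91% of all genes were. These shares include genes of low count. Of genes whose mean reached 1 CPM, 14.3% were lower than in replicate 1 and 14.6% lower than in replicate 2. The 12 were WNT9B, CER1, KREMEN1, PTK7, TNKS, TNKS2, BCL9L, PYGO1, VANGL2, PRICKLE2, DAAM1 and BAMBI.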

How the data were processed

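RNA was extracted with a Qiagen kit and sequenced as Illumina libraries, per the labels' protocols. The submitters' processing notes name featureCounts 1.5.2, STAR 2.5.3a and Trim Galore 0.4.0. No build, annotation, strand setting or rule for shared reads is given in the sources used here, so reads of overlapping genes cannot be told apart. The authors deposited raw counts for each Ensembl gene ID, without normalization.

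Members and lists were chosen with earlier results of these data known. Symbols came from a table of gene IDs, which named 12660 of the 30811 genes. Counts were scaled with TMM (edgeR 4.0.16, limma 3.58.1, R 4.3.3). Each gene with counts was tested against 1 CPM in a quasi-likelihood model that holds only an intercept and uses the trended dispersion. Its F statistic came from the glmQLFit deviances. For genes whose fitted variance was under that of a Poisson model, the Poisson p was the lower bound. Calls needed an adjusted p under 0.05. Pairs of libraries were compared by an exact conditional binomial test, two-sided by doubling the smaller tail, adjusted over all genes, with a minimum of 1.5-fold. Ratios of members used no prior count, and medians a prior count of 0.5. Values per library were given for the 3 members of each role with the highest CPM, those not distinguished from 1 CPM, those with at least 50 counts and a 2-fold difference between any libraries, the targets and those with 0 counts, and for further members as means or ranges. Transcript lengths and sequences were not at hand, so CPM took the place of the planned CPM per kb and promoter motifs were not searched. Alternatives were DESeq2 1.42.0, other scaling, filters, levels, fold minimums, halved counts, replicates 1 and 2 summed and each replicate left out. A marker gene is not reported here. Python 3.11.15 with matplotlib 3.10.9 drew the figures.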

Additional observations from a re-analysis of the deposited data

How the results depend on the processing

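The number of members above 1 CPM was 29, and 29 also under both other scalings, the DESeq2 test, the filter on low counts, the sum of replicates 1 and 2, a level of 0.5 CPM and each replicate left out. It was 25 at a level of 2 CPM. The fits with a replicate left out or with replicates 1 and 2 summed take a gene's spread from the trend alone. Their unchanged count therefore cannot show whether a call withstands a gene's own variation between libraries. The 4 members below 1 CPM became 2 among genes that pass the filter, which removes low genes, and 1 at a level of 0.5 CPM, and ran between 5 and 6 with a replicate left out. The 4 other pathway genes below 1 CPM became 1 with the filter and 2 at 0.5 CPM. Over all genes, 8849 were below 1 CPM, and 1234 among those passing the filter. The 15 members lower in replicate 3 than in replicate 1, and the 15 lower than in replicate 2, became 26 and 26 with no minimum fold, and 2 and 3 members were then higher. Between replicates 2 and 1, 2 were then lower and 4 higher. The share of all genes called with no minimum fold is not given here, so these counts cannot be set against it. With halved counts, WNT3 was no longer called against replicate 1 (adjusted p = 0.109) nor WNT5B against replicate 2 (0.0595), both by the exact conditional binomial test. The ligand median was -1.17 on the log2 CPM scale and -0.57 without replicate 3. No level or ratio of a member that was called changed direction under these alternatives. No paired analysis was possible because all libraries belong to 1 group. Scaling by coding length and by transcript length was not run.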
